A study of Mus musculus with 6 samples.

Results

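The integrin subunits and laminin chains of the mouse mammary gland were described across cell classes and disease states in the C3(1)-Tag model. All features with an alpha integrin, beta integrin or laminin chain symbol were taken, with no use of a measured value, which gave 37 genes of the 31055 features counted: 18 alpha subunits, 8 beta subunits and 11 laminin chains. Single-cell RNA was sequenced in 6 libraries from female C3(1)-Tag mice, with 2 libraries for each of 3 states. The Prepuberty libraries were whole glands at 5 weeks of age, the DCIS libraries were glands with ductal carcinoma in situ at 14 weeks, and the Tumor libraries were palpable tumours taken after 18 weeks. Every library, the Prepuberty glands included, carries the same transgene, the SV40 large T antigen under the C3(1) promoter, and no library without it was analysed here. Nothing in the labels says whether both libraries of a state came from separate animals, so each p-value below measures the spread between libraries only.

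Integrins are receptors made of 1 alpha and 1 beta subunit that hold cells to the extracellular matrix or to other cells, and the pairing decides the ligand. Laminins are trimers of an alpha, a beta and a gamma chain and are the main glycoproteins of basement membranes. In the mammary duct, myoepithelial (basal) cells lie on the basement membrane and form hemidesmosomes with the Itga6 and Itgb4 receptor on the laminin that holds Lama3 and Lamb3, while luminal cells line the lumen. A transcript level of 1 subunit or chain does not show how much of a dimer or trimer a cell makes.

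The start regions of members whose level differed between basal and luminal cells are shown first, because that contrast held the most members that changed. The table of RefSeq promoters (build GRCm38.p6) held an entry for 23 of the 37 members and for 9 of the 14 members that differed in that contrast. The sequences below are the 250 bases before the listed start, written 5′ to 3′ on the strand of the gene, with each GC box in capitals. Itga9 (chr9:118711442-118711691, plus strand) is the basal member with the largest fold change that had an entry, and Itgb6 (chr2:60722604-60722853, minus strand, the first of 2 listed starts) is the luminal member with the largest. Itga5 (chr15:103366792-103367041, minus strand) and Lamb1 (chr12:31265043-31265292, plus strand) are basal members that each held 2 GC boxes.
Itga9: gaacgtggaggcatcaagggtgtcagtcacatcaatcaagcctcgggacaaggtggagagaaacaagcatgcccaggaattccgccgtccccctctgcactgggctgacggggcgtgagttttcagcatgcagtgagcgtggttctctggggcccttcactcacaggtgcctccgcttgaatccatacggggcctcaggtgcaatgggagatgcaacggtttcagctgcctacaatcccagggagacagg
Itgb6: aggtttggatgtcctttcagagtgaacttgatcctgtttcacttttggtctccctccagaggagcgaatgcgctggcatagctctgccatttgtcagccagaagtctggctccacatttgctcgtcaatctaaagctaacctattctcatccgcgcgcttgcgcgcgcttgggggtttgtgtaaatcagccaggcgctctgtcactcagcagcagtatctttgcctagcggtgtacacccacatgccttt
Itga5: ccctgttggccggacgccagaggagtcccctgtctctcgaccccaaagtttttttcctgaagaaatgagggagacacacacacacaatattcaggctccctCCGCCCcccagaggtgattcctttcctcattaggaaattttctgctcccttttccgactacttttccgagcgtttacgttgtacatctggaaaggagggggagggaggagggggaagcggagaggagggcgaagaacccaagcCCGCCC
Lamb1: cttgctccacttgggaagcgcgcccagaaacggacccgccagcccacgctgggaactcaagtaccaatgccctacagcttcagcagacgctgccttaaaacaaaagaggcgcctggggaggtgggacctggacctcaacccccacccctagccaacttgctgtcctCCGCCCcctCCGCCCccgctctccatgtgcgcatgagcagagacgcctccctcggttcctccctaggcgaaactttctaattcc
The GC box was searched as GGGCGG on both strands, and it was present before the starts of 8 of the 23 members (Itga3, Itga4, Itga5, Itgam, Itgb1, Itgb5, Lama5 and Lamb1). Of all 32851 listed promoters, 32.7% held it in the same 250 bases. A TATA box, searched as TATAAA, was found before none of the members and in 12.4% of all promoters, and an AP-1 motif, searched as TGANTCA, was found before Itgax alone and in 6.75% of all. No match overlapped another in the 4 sequences shown. These matches describe the letters of the window only.

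Cells were grouped into 25 clusters with the members left out of the clustering and of the marker lists, and clusters were named after markers with the ending "-like". Of 23835 barcodes 21537 cells were kept, from 2548 to 4306 a library, with a median of 6541 to 13631.5 UMIs a cell. Any 2 libraries shared 7 to 34 barcodes among the kept cells. Krt5, a basal keratin, stood between 221 and 366 CPM, the UMIs of a gene scaled to the UMI total of its class and library, in the myoepithelial-like cells of the 4 glands and between 0 and 9.63 CPM in their epithelial-like cells. The myoepithelial-like cells numbered 82, 124, 187 and 634 in Prepuberty 1 and 2 and DCIS 1 and 2. The Tumor libraries held 23 and 52 cells under that name, of which 30.4% and 40.4% had a UMI of the T antigen, and 5 of 9 and 2 of 9 myoepithelial markers were at 0 there, Acta2 and Myh11 in both. Without integration of the libraries 0 Tumor cells were placed in that class, so the tests of basal cells below use the glands only, while the placing of members by class used these cells too. The 3′ UMIs are not scaled to transcript length, so levels are compared between cells for 1 gene, never between genes.

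Each member was first placed by the cell class with its highest median CPM over libraries, among 10 named classes with at least 10 cells a library. This placing is a description with no test, and for 31 of the 37 members the range over libraries overlapped that of the class next in order. The 6 members without such an overlap were Itga1, Itga11, Itga2b, Itgam, Itgb7 and Itgb8.

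**Figure D1:**
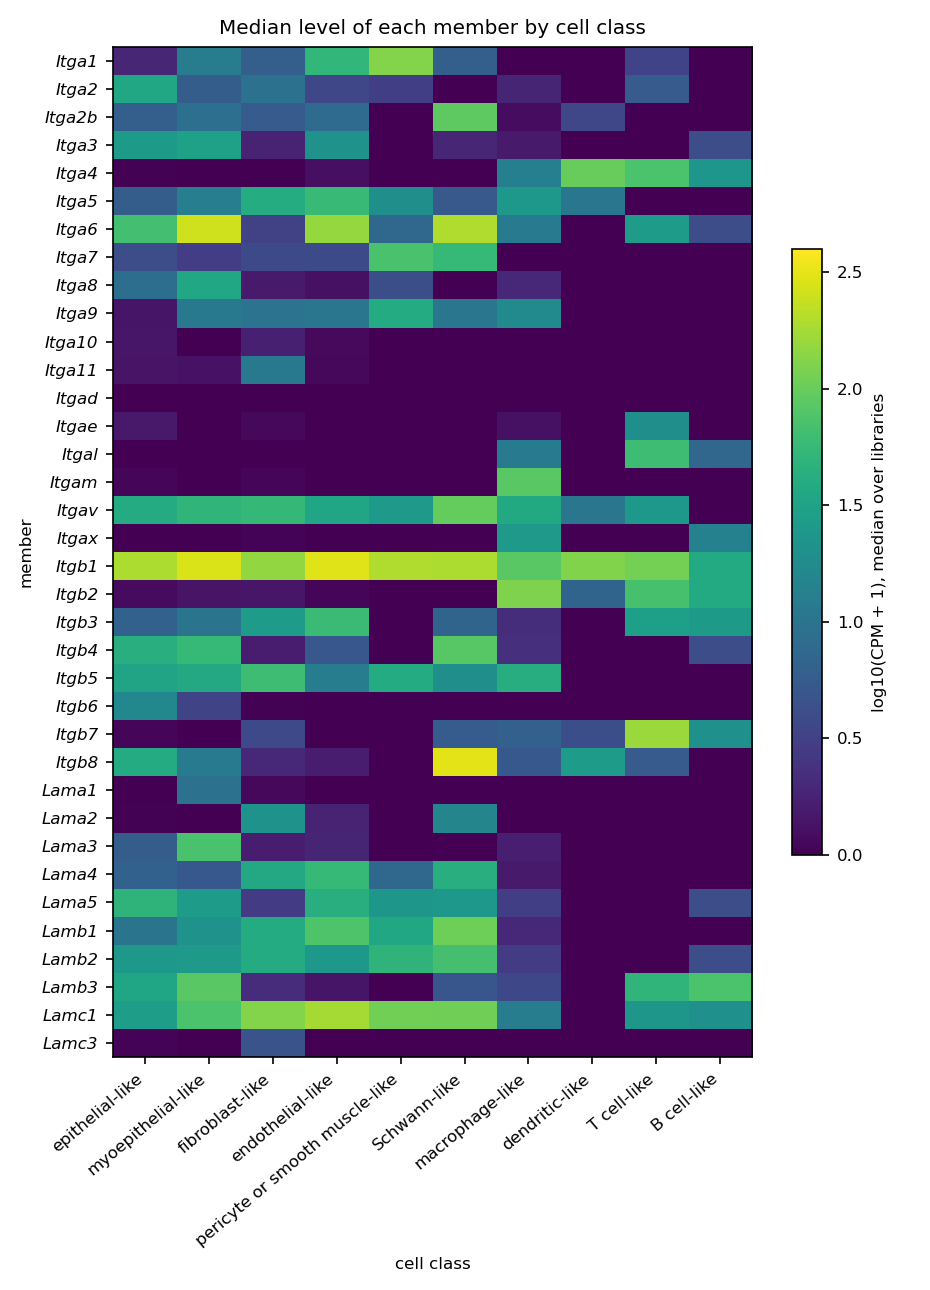
Median level of members (rows) in 10 cell classes (columns), as log10(CPM + 1) of the median over libraries with at least 10 cells of the class. The leukocyte subunits Itgam, Itgb2 and Itgax stand out in macrophage-like cells and Itgal, Itgae and Itgb7 in T-cell-like cells, the chains Lama1, Lama3 and Lamb3 have their highest medians in myoepithelial-like cells, and Itgb1 is seen in every class.

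The 2 epithelial classes held the highest medians of 10 members. Myoepithelial-like cells held the highest medians of 3 alpha subunits, Itga3, Itga6 and Itga8, and of the chains Lama1, Lama3 and Lamb3. Itga6, a laminin receptor subunit that pairs with Itgb1 or Itgb4, stood at 254 to 414 CPM there in the 4 glands and at 74.8 and 84.0 CPM in the 23 and 52 Tumor cells under that name, and Schwann-like cells followed at a median of 193 CPM (89.5 to 239). Epithelial-like cells held the highest medians of Itga2, a subunit of a collagen receptor, at 34.6 CPM (10.9 to 43.4), of Itgb6, which pairs with Itgav to bind latent TGF-beta, at 15.2 CPM (3.49 to 39.99), and of Lama5 at 48.3 CPM (25.9 to 88.8). Endothelial-like cells followed for Lama5 at 42.5 CPM (15.1 to 51.9).

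Stromal classes held the other chains. Lama4, the alpha chain of vessel basement membranes, was highest in endothelial-like cells at 54.5 CPM (35.6 to 285), and so were Lamc1 at 176 CPM (117 to 328), Itga5, the fibronectin receptor subunit, at 56.1 CPM (45.5 to 123), Itgb3 at 58.1 CPM (27.8 to 88.8) and Itgb1 at 298 CPM (258 to 1028). Lama2, the alpha chain of muscle and nerve basement membranes, was highest in fibroblast-like cells at 20.5 CPM (9.78 to 48.8), where Lamc3, Itga10, Itga11 and Itgb5 also had their highest medians. Itga11, a collagen receptor subunit, stood at 10.3 CPM (2.37 to 38.1) there and at or below 0.893 CPM in every epithelial-like sum. Pericyte- or smooth-muscle-like cells led for Itga1, at 130 CPM (117 to 392), Itga7 and Itga9.

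Schwann-like cells were the class with the highest median for 6 members: Itgav, Itga2b, Itgb4, Itgb8, Lamb1 and Lamb2. Itgb8, which also pairs with Itgav, stood at 300, 326, 239 and 379 CPM in the Schwann-like cells of the 4 glands. Epithelial-like cells came next at a median of 39.2 CPM (20.6 to 54.4), so the ranges did not overlap. Itga2b is known as the platelet subunit, and 98 of 445 Schwann-like cells (22%, exact 95% interval 18.3 to 26.2) held at least 1 of its UMIs, against 107 of 2260 endothelial-like cells (4.73%) and 3 of 1213 macrophage-like cells (0.247%). The median depth was 4038 UMIs in Schwann-like, 6919 in endothelial-like and 4890 in macrophage-like cells.

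Leukocyte subunits were placed in immune classes. Itgam and Itgb2, which form the complement receptor of myeloid cells, had medians of 84.2 CPM (48.3 to 190) and 123 CPM (39.5 to 171) in macrophage-like cells, and Itgax stood at 23.7 CPM (4.39 to 52.9). In T-cell-like cells Itgb7, a subunit of gut and epithelial homing receptors, had a median of 159 CPM (43.8 to 219) and Itgal 61.4 CPM (18.1 to 130). Itgae, the partner of Itgb7 on intraepithelial T cells, stood at 18.6 CPM there (0 to 72.9), and Itga4 was highest in dendritic-like cells at 98.7 CPM (47.9 to 147). Itgad had 3 UMIs in all kept cells and could not be placed. Intervals on shares of cells cover counting error only.

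Lamb3 was also counted in lymphocytes, in which few UMIs of its partner Lama3 were seen. Lamb3 UMIs were found in 52 of 471 T-cell-like cells (11%, exact 95% interval 8.36 to 14.2) and in 17 of 114 B-cell-like cells (14.9%, 8.93 to 22.8). Lama3 was found in 1 (0.212%) of the same T-cell-like cells. In endothelial-like cells, which should lack the chain, the Lamb3 share was 0.531%, and in macrophage-like cells it was 2.56%, at a median depth of 6919 and 4890 UMIs against 1859 in T-cell-like cells. By library the Lamb3 level in T-cell-like cells was 45.4 CPM in Prepuberty 2, 70.1 and 54.3 CPM in DCIS 1 and 2 and 48.9 and 41.2 CPM in Tumor 1 and 2, on 3 to 21 UMIs each. In the same order of libraries 9 luminal markers summed to 36.4, 184, 54.3, 286 and 76.1 CPM in those cells, with 2 to 9 of the 9 markers seen, and their part in the Lamb3 level was not tested.

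Several members lie next to each other in the genome (GRCm38, GENCODE M21 positions), which allows neighbours to be set side by side. Itga2 and Itga1, both collagen receptor subunits, are 21.0 kb apart on chromosome 13. Itga1 was higher in basal and Itga2 had its highest median in luminal cells. Itgam, Itgax and Itgad lie in a row on chromosome 7, with 11.1 kb and 3.72 kb between neighbours.

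The contrast of basal and luminal cells asks which receptors and chains mark each layer of the duct. UMIs were summed per library and class, and the 4 gland libraries were compared by the quasi-likelihood test of edgeR with the library as a block. Of the 25 members with enough counts to be tested, 12 were higher in myoepithelial-like cells and 2 were higher in epithelial-like cells. This is 56% of the members tested, against 30.2% of all 10313 genes tested (14.4% higher, 15.8% lower). The clusters were drawn from other genes of the same cells, so the background share, and not 0, is the level to read that count against. Lama1, Itga1 and Itga9 were under the count filter in every epithelial-like sum and passed it through basal cells alone, so they had to differ, and their values are given below without a test. Among features at the filter in at least 1 sum of each class, 11 of 22 members (50%) passed, against 26.7% of all such genes. The median log2 fold change of the members tested was 0.86 and that of all genes was -0.06.

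The alpha chains Lama1 and Lama3 were low in luminal cells. Lama1, an alpha chain of early basement membranes, stood at 33.3, 6.40, 10.1 and 12.8 CPM in the myoepithelial-like cells of Prepuberty 1 and 2 and DCIS 1 and 2, and at 0.152, 0, 0 and 0.128 CPM in their epithelial-like cells. Epithelial-like cells held 4 Lama1 UMIs in all against 93, and the groups did not overlap. Lama3, the alpha chain of the hemidesmosome laminin, stood at 111, 88.4, 66.6 and 73.0 CPM against 1.90, 2.95, 6.74 and 1.34 CPM. Its groups were also apart in all 4 libraries (log2 fold change 5.05, SE 0.41, adjusted p = 3.28e-05).

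Lamb3, a partner of Lama3, differed less. It stood at 75.8, 93.5, 68.9 and 114 CPM in basal and 18.1, 32.8, 32.0 and 31.1 CPM in luminal cells. The basal values were higher in 4 of 4 libraries with no overlap (log2 fold change 1.78, SE 0.20, adjusted p = 2.06e-04).

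The chains of other trimers were mixed. Lamc1, the gamma chain most trimers share, was higher in basal cells, at 88.7, 53.8, 102 and 102 CPM against 30.1, 35.4, 23.7 and 25.5 CPM (log2 fold change 1.77, SE 0.31, adjusted p = 0.00217). Lamb1 was higher too, at 33.3, 19.2, 12.4 and 10.6 CPM against 6.68, 11.4, 5.42 and 3.96 CPM, with an overlap between Prepuberty 2 luminal and DCIS 2 basal cells (1.58, SE 0.33, adjusted p = 0.00558). Lama5, by contrast, stood at 49.9, 26.9, 26.3 and 27.9 CPM in basal and 49.6, 88.8, 40.8 and 49.7 CPM in luminal cells, lower in 3 of 4 libraries (-0.63, SE 0.29, adjusted p = 0.131). Lama4, at 2.47 to 7.39 CPM in basal and 1.87 to 6.31 CPM in luminal cells, did not pass (adjusted p = 0.599). Lama2 was at 0 to 0.225 CPM in basal and 0 to 0.911 CPM in luminal cells and was not tested.

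Among receptors, 5 alpha subunits were higher in basal cells, of which Itga1 and Itga9 are given without a test. Itga6 stood at 414, 260, 254 and 266 CPM against 78.6, 75.8, 29.7 and 40.5 CPM in luminal cells. Every basal value was above every luminal value (log2 fold change 2.65, SE 0.28, adjusted p = 1.42e-04). Itga8, whose product binds nephronectin, stood at 126, 37.1, 34.1 and 47.8 CPM against 9.41, 10.9, 3.37 and 5.88 CPM (3.19, SE 0.34, adjusted p = 1.47e-04). Prepuberty 1 stood well above the other 3 basal values for both genes.

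Itga9, a receptor subunit for tenascin and VCAM1, and Itga1, a collagen receptor subunit, were low in luminal cells. Itga9 stood at 12.9, 7.68, 26.3 and 27.2 CPM in basal and 1.59, 1.68, 0.181 and 0.319 CPM in luminal cells. Itga1 stood at 20.3, 8.96, 13.9 and 21.6 CPM against 1.14, 0.421, 0.361 and 0.639 CPM. Neither gene's groups overlapped in any of the 4 glands. Itga5 stood at 11.1, 6.40, 14.7 and 12.8 CPM against 3.04, 3.79, 5.06 and 4.54 CPM, also with no overlap (log2 fold change 1.64, SE 0.34, adjusted p = 0.0057), although without DCIS 2 it no longer passed (adjusted p up to 0.0568).

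The beta partners differed by less than 2-fold in fitted values. Itgb1, the common beta subunit, stood at 198, 302, 303 and 265 CPM in basal and 134, 227, 152 and 143 CPM in luminal cells. The basal value was higher within each library, while the groups overlapped (log2 fold change 0.86, SE 0.21, adjusted p = 0.0125), and without DCIS 2 the difference did not pass (adjusted p = 0.0816). Itgb4, the hemidesmosome subunit, stood at 59.1, 43.5, 28.6 and 51.7 CPM against 34.8, 50.1, 15.8 and 19.2 CPM. It was higher in 3 of 4 libraries and passed narrowly (0.90, SE 0.30, adjusted p = 0.048). The Itgb4 call was lost without Prepuberty 1, without DCIS 1, without DCIS 2, without the library as a block and without integration, with adjusted p up to 0.27.

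The luminal side held 2 beta subunits that pair with Itgav. Itgb6 stood at 20.6, 39.99, 14.3 and 16.2 CPM in luminal and 3.70, 2.56, 2.32 and 1.80 CPM in basal cells, with no overlap (log2 fold change -2.96, SE 0.37, adjusted p = 3.41e-04, basal minus luminal). Itgb8 stood at 37.1, 20.6, 46.4 and 41.3 CPM against 9.24, 12.8, 6.19 and 6.06 CPM, also apart (-2.06, SE 0.34, adjusted p = 0.0017). Itgav itself, at 26.0 to 52.6 CPM in luminal and 39.7 to 75.8 CPM in basal cells, did not pass (0.58, adjusted p = 0.136). Itga2 was lower in basal cells in 4 of 4 libraries, at 5.54, 1.28, 5.42 and 9.66 CPM against 38, 43.4, 10.9 and 12.3 CPM, without passing (-1.46, adjusted p = 0.0816). Itga3, a laminin receptor subunit, stood at 18.5 to 45.6 CPM in basal and 16.9 to 28.2 CPM in luminal cells (0.75, adjusted p = 0.162).

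**Figure D2:**
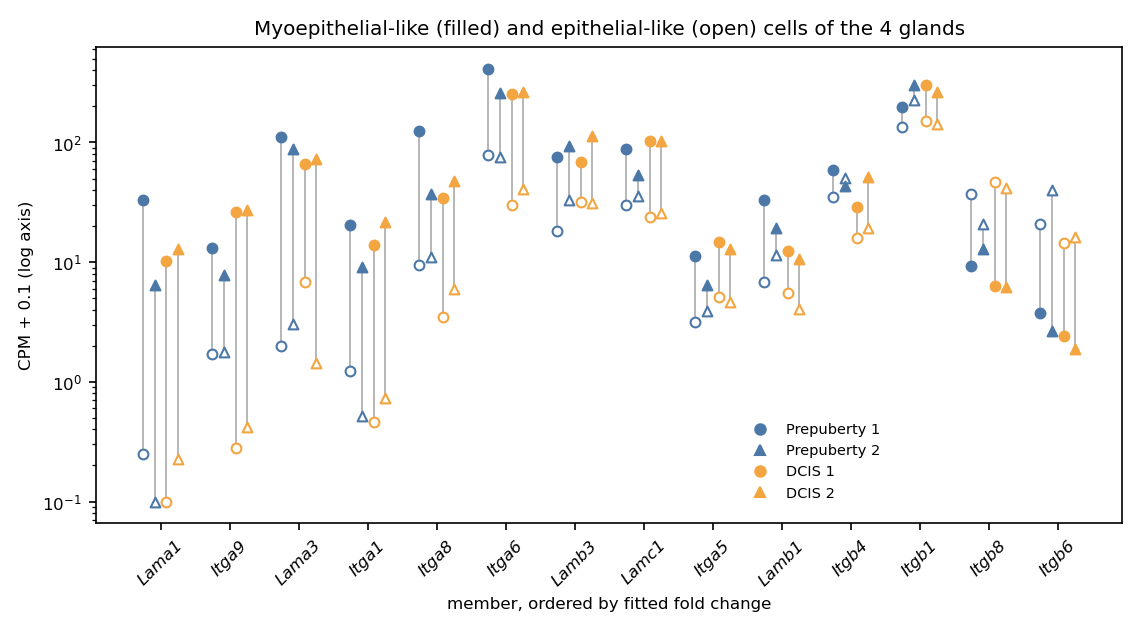
Levels of the 14 members called in the basal against luminal contrast, as CPM + 0.1 on a log axis, in myoepithelial-like (filled) and epithelial-like (open) cells of the 4 gland libraries, which are joined by a line within a library (circle replicate 1, triangle replicate 2). Lama1, Itga1 and Itga9 reached the count filter in basal cells alone and had to differ. Filled points lie above open ones in all 4 glands for 11 of the 12 members on the left and below them for Itgb8 and Itgb6, and Itgb4 of Prepuberty 2 is the exception.

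The genes that work with these receptors were counted from 5 lists. All 9 tested genes of other basement membrane components were higher in basal cells, with a median log2 fold change of 2.39, among them the collagen IV genes Col4a2 (4.55, 219 against 12.9 CPM) and Col4a1 (4.19) and the netrin gene Ntn4 (3.47). Of the 4 hemidesmosome partners 3 were higher, with Col17a1, the collagen of hemidesmosomes, at 81.9 against 1.53 CPM (6.25), Dst (2.05) and Cd151 (1.51), while Plec did not pass. Of 22 adaptors and activators 8 were higher and 2 lower, led by Tns4 (4.2) and Tns1 (3.16) upward and Tln2 (-1.87) downward. Among 5 other laminin receptors Bcam (3.36) and Dag1 (0.82) were higher. Of 9 ligands of other integrins Postn (5.14) and Vcam1 (4.18) were higher and Spp1 (-5.46), Cdh1 (-1.93) and Mfge8 (-0.68) lower.

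Between DCIS and Prepuberty no member passed within basal cells. Of 18 members tested 0 passed and 2 had an unadjusted p under 0.05 (edgeR quasi-likelihood test), and 0% of all 7201 genes passed. DESeq2 and every other alternative also gave 0 members.

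Luminal cells were then split by hormone-sensing and secretory markers. In the 4 glands 22 members were tested, of which 3 were higher and 4 lower in hormone-sensing luminal cells. This is 31.8% of members, against 23.2% of all genes tested (10.5% higher, 12.7% lower). Itgav, at 61.3, 55.6, 55.7 and 67.4 CPM in hormone-sensing against 43.4, 53.0, 23.1 and 34.5 CPM in secretory cells, was higher with no overlap (log2 fold change 0.82, SE 0.19, adjusted p = 0.00959). Itgb4, at 35.9, 58.0, 31.1 and 28.7 CPM against 33.8, 45.4, 12.5 and 14.0 CPM, was higher within each library (0.74, SE 0.22, adjusted p = 0.0276).

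Secretory luminal cells were higher for 4 members. Itga8 stood at 16.0, 19.9, 6.33 and 12.8 CPM there and at 4.17, 6.04, 0.438 and 1.77 CPM in hormone-sensing cells, with no overlap (log2 fold change -2.27, SE 0.30, adjusted p = 4.46e-04, hormone-sensing minus secretory). Itgb8 stood at 57.2, 22.7, 64.3 and 46.9 CPM against 13.5, 18.1, 28.5 and 23.0 CPM (-1.22, SE 0.21, adjusted p = 0.00193). Lamb3 (-0.76, adjusted p = 0.0177) and Lama3 (-1.37, adjusted p = 0.0464) were lower in hormone-sensing cells in 4 of 4 libraries, Lama3 on 11 against 50 UMIs. Itgb6 did not differ beyond the spread (-0.12, adjusted p = 0.787, with an interval of 2 SEs from -0.67 to 0.42). Without the library as a block 1 member passed in place of 7, and without DCIS 2 there were 3. The Lamb3 call was lost without Prepuberty 1, without DCIS 2 and without the replicate block (adjusted p up to 0.339), and the Itgav call without DCIS 2 and without the block (up to 0.125). The Itgb4 call held in 5 of 13 alternatives, with adjusted p up to 0.403, and the Lama3 call in 2 of the 7 in which it was tested, with adjusted p up to 0.306.

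Luminal subsets also differed in partner genes. Of 21 adaptors 1 was higher (Fermt1, 1.07) and 9 lower in hormone-sensing cells, among them Tln2 (-1.43) and Tns3 (-1.25). Of 9 ligands 1 was higher (Tgfb1, 1.064) and 5 lower, led by Spp1 (-2.64) and Tnc (-1.79). Hspg2, Col18a1 and Col4a5 of 9 basement membrane genes were lower, as were Bcam and Dag1 of 5 laminin receptors, and Plec alone of 3 hemidesmosome partners was higher (0.53).

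The state comparisons ask how the epithelium changed on the way from gland to tumour. In epithelial-like cells 25 members were tested. Between DCIS and Prepuberty 0 passed by edgeR (4 at an unadjusted p under 0.05, and 1 by DESeq2), with 0% of all genes. Between Tumor and DCIS 0 passed by edgeR (10 at an unadjusted p under 0.05, and 5 by DESeq2), against 1.26% of all genes. Between Tumor and Prepuberty 3 passed, 12% of the members tested against 6.15% of all 13387 genes. By direction 2 members were higher and 1 lower, where 2.84% of all genes were higher and 3.31% lower.

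Lama3 and Lamb3, chains of the hemidesmosome laminin, were higher in tumour epithelium than in Prepuberty epithelium. Lama3 stood at 1.90 and 2.95 CPM in Prepuberty 1 and 2, 6.74 and 1.34 CPM in DCIS 1 and 2 and 25.2 and 36.9 CPM in Tumor 1 and 2. Both tumours lay above all 4 glands (log2 fold change Tumor minus Prepuberty 3.47, SE 0.74, adjusted p = 0.041, and Tumor minus DCIS 2.54, SE 0.65, adjusted p = 0.0831). Lamb3 stood at 18.1, 32.8, 32.0, 31.1, 64.4 and 112 CPM in the same order. It was again above the glands in both tumours (1.52, SE 0.34, adjusted p = 0.045, and 1.05, SE 0.33, adjusted p = 0.12).

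Itgb6 went the other way. It stood at 20.6 and 39.99 CPM in Prepuberty, 14.3 and 16.2 CPM in DCIS and 3.49 and 10.2 CPM in Tumor epithelium, so both tumours were below all glands (log2 fold change Tumor minus Prepuberty -2.46, SE 0.49, adjusted p = 0.0376). Tumor minus DCIS was -1.63 (SE 0.47, adjusted p = 0.104). Itgb8 stood at 37.1, 20.6, 46.4, 41.3, 30.0 and 54.4 CPM, and the tumours overlapped both gland states (Tumor minus Prepuberty 0.18, adjusted p = 0.786).

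The other receptors of the epithelium did not pass, and several had their lowest mean in DCIS. Itgb4 stood at 34.8 and 50.1 CPM in Prepuberty, 15.8 and 19.2 CPM in DCIS and 50.0 and 83.8 CPM in Tumor (Tumor minus DCIS 1.5, SE 0.30, adjusted p = 0.058). Itga2 was also lowest in DCIS, at 38 and 43.4, then 10.9 and 12.3, then 38.4 and 31.2 CPM (1.21, SE 0.31, adjusted p = 0.0839). Itga6 stood at 78.6, 75.8, 29.7, 40.5, 99.7 and 55.8 CPM (0.81, adjusted p = 0.282). Itga3 stood at 22.4, 28.2, 16.9, 17.9, 40.5 and 45 CPM (0.90, SE 0.27, adjusted p = 0.107) and Itgav at 49.6, 52.6, 26.0, 41.9, 34.3 and 36.5 CPM (-0.34, adjusted p = 0.55), so the DCIS values were below Prepuberty for all 5 genes and below Tumor for all but Itgav. Lamb1 stood at 6.68, 11.4, 5.42, 3.96, 24.9 and 19.3 CPM (1.87, SE 0.41, adjusted p = 0.0655). Itga5 stood at 3.04, 3.79, 5.06, 4.54, 11.1 and 13.6 CPM (Tumor minus Prepuberty 1.60, SE 0.39, adjusted p = 0.0566), and Lama5 at 49.6, 88.8, 40.8, 49.7, 47.1 and 25.9 CPM (-1.11, adjusted p = 0.161). Lamc1 stood at 30.1, 35.4, 23.7, 25.5, 33.3 and 19.5 CPM and Lama4 at 6.07, 6.31, 1.87, 2.62, 14.4 and 4.87 CPM. Lama2 was at or below 0.911 CPM in every epithelial-like sum and was not tested.

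Itgb1 was highest in Tumor 2. It stood at 134, 227, 152, 143, 259 and 623 CPM in epithelial-like cells and did not pass (Tumor minus Prepuberty 0.97, SE 0.39, adjusted p = 0.154). In each of 6 cell classes its level in Tumor 2 was 2.13 to 3.71 times that in Tumor 1. The study's methods give a later library kit for Tumor 2 than for the other libraries, whereas the labels give 1 kit for all, and its part in these values was not tested.

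Other features moved with the state in these cells. The T antigen stood at 12.1, 1.26, 37.4, 18.3, 259 and 59.5 CPM, and the basal keratin Krt14 at 105, 77.9, 363, 103, 517 and 2064 CPM, while Krt5 stood at 0 to 9.63 CPM in the glands and 0.375 and 17.1 CPM in the tumours. The summed level of 9 myoepithelial markers in epithelial-like cells was 240 to 1060 CPM in the glands, and 1454 and 2523 CPM in Tumor 1 and 2. Their part in the Lama3, Lamb3 and Itgb6 results was not tested. In epithelial-like cells without a T-antigen UMI, Lama3 was 1.53, 3.12, 6.78, 1.40, 27.2 and 45.5 CPM and Lamb3 17.7, 32.5, 32.3, 31.2, 58.7 and 116 CPM, so both tumours lay above the glands there too. The study's methods also name another dissociation kit for tumours, and tissue, dissociation and state cannot be told apart.

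Partner genes were counted in the same contrast. Of 11 ligands Spp1 (5.26) and Fn1 (3.29) were higher and Icam1 (-3.02) lower between Tumor and Prepuberty. Edil3 (19.1 and 33.6 against 0.455 and 0 CPM) and Vcam1 (0.304 and 0.186 against 2.20 and 45.5 CPM) were also called, but reached the count filter in 1 of the 2 states only. Of 11 basement membrane genes Col4a1 (-2.15) and Agrn (-1.33) were lower, Sdc1 (2.13) of 5 laminin receptors was higher, and 0 of 4 hemidesmosome partners and 0 of 24 adaptors passed.

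The epithelial class was made up of different clusters in each state. Cluster 12, the hormone-sensing cluster, held 43.4% and 37.7% of the epithelial-like cells of Prepuberty 1 and 2, 11% and 34.8% of those of DCIS 1 and 2 and 0.62% and 3.36% of those of Tumor 1 and 2. Cluster 9 held 2.61%, 27.3%, 1.25%, 2.27%, 26.8% and 17.9% in the same order. With both clusters left out, an alternative chosen after seeing the data, Lama3 stood at 2.73, 3.56, 7.04, 1.83, 10.1 and 28.5 CPM and no longer passed (Tumor minus Prepuberty 2.28, adjusted p = 0.103). Lamb3 stood at 23.4, 35.6, 32.7, 37.2, 43.5 and 96.8 CPM and did not pass either (0.91, adjusted p = 0.155). For both genes the tumours were still above all 4 glands. Itgb6 still passed, at 25.2, 42.7, 12.5, 14.0, 2.93 and 9.04 CPM (-2.86, adjusted p = 0.03).

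All 3 calls were lost when the libraries were clustered without integration, where 307 Tumor 2 cells remained in the class in place of 1370. Over 18 alternatives the Lama3 call held in 12, the Itgb6 call in 12 and the Lamb3 call in 7. Leaving out 1 library gave 0 calls without Prepuberty 1 or Prepuberty 2, 1 without DCIS 1 or DCIS 2 and 6 without Tumor 1.

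**Figure D3:**
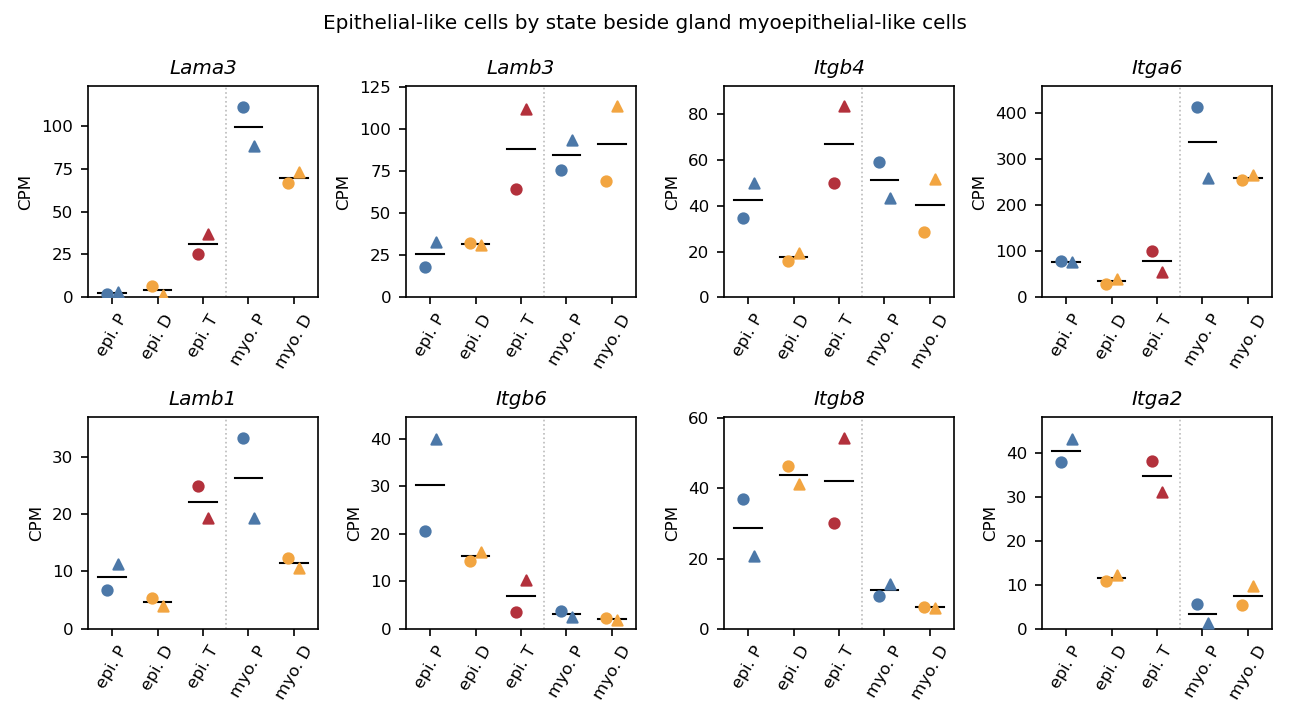
Levels in CPM of 8 members in epithelial-like (epi.) cells of Prepuberty (P), DCIS (D) and Tumor (T) libraries and, right of the dotted line, in gland myoepithelial-like (myo.) cells. Points are libraries (circle replicate 1, triangle replicate 2) and lines are means of 2 libraries. Lama3 of the tumours, at 25.2 and 36.9 CPM, lies between luminal and basal cells of the glands, Lamb3 of Tumor 2, at 112 CPM, lies within the basal range, and Itgb4, Itga6 and Itga2 are lowest in DCIS among the epithelial points.

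Within the tumours Lama3 and Lamb3 were unevenly spread over epithelial clusters. Clusters are compared inside each tumour as a description, without a test, since they were drawn from the same cells. Cluster 9, led by Pthlh, Nppb, Aqp3 and Inhba, made up 26.8% of the epithelial-like cells of Tumor 1 (734 of 2740) and 17.9% of Tumor 2 (245 of 1370). Lama3 stood at 65.0 CPM in cluster 9 of Tumor 1 and from 0.797 to 29.3 CPM in the other 5 clusters, and at 81.2 CPM against 4.98 to 44.2 CPM in Tumor 2. Cluster 9 thus held 70.5% of the Lama3 UMIs of the epithelium of Tumor 1 with 27.4% of its UMIs, and 37.0% with 16.8% in Tumor 2.

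Lamb3 had the same cluster on top. It stood at 120 CPM in cluster 9 against 14.7 to 55.7 CPM elsewhere in Tumor 1, and at 193 against 41.5 to 111 CPM in Tumor 2. Among the epithelial-like clusters, cluster 9 of both tumours also had the highest levels of Itga2 (70.3 and 58.2 CPM), Itga5 (23.9 and 23.7 CPM) and Itgb4 (64.2 and 132 CPM). The same held for Itgb1 (326 and 804 CPM) and Lamb1 (36.1 and 29.0 CPM). Itga6 was highest there in Tumor 1, at 126 CPM, but not in Tumor 2, at 77.0 CPM against 104 CPM in cluster 12.

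Itgb8 ran against Lama3 and Lamb3. It was lowest in cluster 9 of Tumor 1, at 13.4 CPM, and low in that of Tumor 2, at 26.6 CPM, where cluster 12 was lower at 22.5 CPM on 13 UMIs. It was highest in cluster 13, the secretory cluster led by casein genes, at 49.4 and 98.5 CPM. Lama3 was lowest in that same cluster in both tumours, at 0.797 and 4.98 CPM. An unnamed cluster of 726 cells, led by Acan, Npy and Wnt10a, in which T-antigen UMIs were also seen, held Lama3 at 9.82 and 3.19 CPM and Lamb3 at 57.0 and 116 CPM in Tumor 1 and 2. It held Itga5 at 38.2 and 29.8 CPM, Itgb1 at 335 and 804 CPM and Lamb1 at 42.3 and 26.4 CPM. Another unnamed cluster, of 209 cells led by Cenpe, Hmmr and Plk1, held these 3 genes at 34.0 and 36.5, 378 and 934, and 43.7 and 27.4 CPM. Itga5 of both tumours and Lamb1 of Tumor 1 were thus higher in both unnamed clusters than in cluster 9, while Itga2 and Itgb4 were lower.

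**Figure D4:**
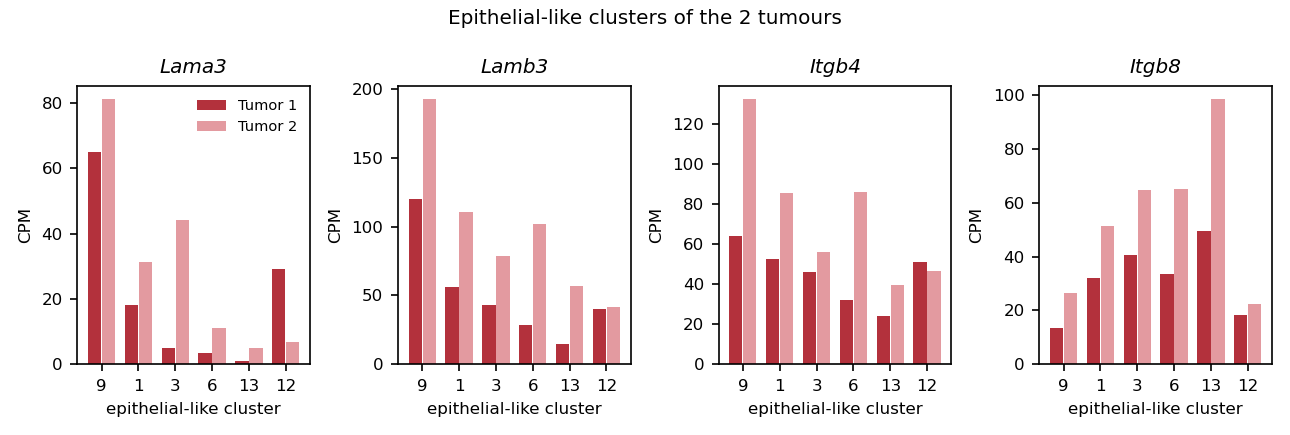
Levels in CPM (bars, 1 pooled value per cluster and tumour, no error) of Lama3, Lamb3, Itgb4 and Itgb8 in the 6 epithelial-like clusters of Tumor 1 (dark) and Tumor 2 (light). Lama3, Lamb3 and Itgb4 are highest in cluster 9 of both tumours, with Lama3 at 65.0 and 81.2 CPM, while Itgb8 is highest in cluster 13.

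Tumour epithelium was also set against the basal cells of the DCIS glands, to ask how far it resembled them. The 2 arms come from different libraries. Of 26 members tested 2 were higher and 9 lower in tumour epithelium, 42.3% against 28.9% of all genes tested (15.6% higher, 13.4% lower). Among features at the filter in at least 1 library of each arm, which leaves out Itga9 and Lama1, 9 of 23 members (39.1%) passed, against 27.2% of genes. Itgb8 (30.0 and 54.4 CPM against 6.19 and 6.06 CPM, log2 fold change 2.09, SE 0.40, adjusted p = 0.00402) and Itga2 (38.4 and 31.2 against 5.42 and 9.66 CPM, 1.51, SE 0.42, adjusted p = 0.0227) were higher. The Itgb8 call was lost without DCIS 1 or DCIS 2 (adjusted p up to 0.0946) and the Itga2 call without DCIS 1, DCIS 2 or Tumor 1 and with tumour cells chosen by T antigen (up to 0.18).

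Several basal members, but not all, were lower in tumour epithelium than in DCIS basal cells. Itga9 stood at 0.468 and 0.112 CPM in the tumours against 26.3 and 27.2 CPM in DCIS basal cells, under the count filter in both tumours, and it is given without a test. Lama1 had 1 UMI in the tumours against 70, a ratio of 848 of pooled CPM, basal over tumour, with a counting interval from 147 to 33964. Itga1 (1.31 and 1.19 against 13.9 and 21.6 CPM, log2 fold change -4.47, adjusted p = 8.13e-04), Lamc1 (33.3 and 19.5 against 102 and 102 CPM, -2.55, adjusted p = 0.00176) and Itga6 (99.7 and 55.8 against 254 and 266 CPM, -2.34, adjusted p = 0.0035) were also lower. Lama3 was lower as well, at 25.2 and 36.9 against 66.6 and 73.0 CPM (-1.86, SE 0.52, adjusted p = 0.0226), followed by Itga8, Itgav and Itgb3. The Lama3 call was lost without Prepuberty 1, Prepuberty 2 or Tumor 1, the Itga8 call without DCIS 1 or DCIS 2 and the Itgav call without DCIS 1, DCIS 2 or Tumor 2. The Itgb3 call (adjusted p = 0.0489) held in 6 of 16 alternatives, with adjusted p up to 0.15. Lamb3 (-0.76, adjusted p = 0.0914) and Itgb4 (0.02, with an interval of 2 SEs from -0.65 to 0.69) did not pass. Itga5 (-0.81, adjusted p = 0.134), Lamb1 (0.34, adjusted p = 0.589) and Itgb1 (-0.11, adjusted p = 0.831) did not pass either. Without DCIS 1 or DCIS 2 the count fell from 11 to 6.

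Partner genes on the lists were called in both directions. Of 11 basement membrane genes 7 were lower in tumour epithelium, with Ntn4 (-5.02), Col4a1 (-4.99) and Col4a2 (-4.57) the furthest. Col17a1, Dst and Cd151 of 4 hemidesmosome partners were lower (-3.65, -3.15 and -2.06). Of 24 adaptors 10 were lower, and Tln2 was higher (3.46). Of 5 laminin receptors Bcam was lower (-3.63) and Sdc1 higher (1.79). Of 11 ligands 4 were higher, Spp1 (3804 against 9.80 CPM), Fn1 (588 against 21.2 CPM), Npnt and Edil3, and 3 lower, with Edil3 and the lower Vcam1 at the count filter in 1 of the 2 arms only and Postn at 29.2 against 1161 CPM.

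In endothelial-like cells Lama4 and Lamb1 were higher in the tumours. The Tumor libraries held 77 and 32 such cells, against 354 to 703 in the glands, and 90.9% and 90.6% of them lay in cluster 5, led by Gpihbp1 and Cldn5, against 39.2% to 68.7% in the glands, where the rest lay in cluster 11, led by Ackr1 and Selp. Of 19 members tested 4 were higher and 0 lower between Tumor and DCIS (21.1% against 13.8% of all genes), and 5 were higher and 0 lower between Tumor and Prepuberty (26.3% against 12.1%). Of all genes 7.16% were higher and 6.59% lower in the first of these contrasts, and 7.15% and 4.98% in the second. Among features at the filter in at least 1 library of each state, which leaves out Itga2, 3 of 17 members (17.6%) passed in the first, against 12.8% of genes, and 4 of 17 (23.5%) in the second, against 10.5%. Between DCIS and Prepuberty 0 passed by edgeR (5 at an unadjusted p under 0.05, and 1 by DESeq2), with 0% of all genes. The 3 contrasts share libraries and are not independent of each other.

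Lama4 stood at 36.1 and 35.6 CPM in Prepuberty, 45.4 and 63.5 CPM in DCIS and 285 and 275 CPM in Tumor endothelial-like cells. The tumours lay far above all 4 glands (log2 fold change Tumor minus DCIS 2.00, SE 0.26, adjusted p = 0.00354, and Tumor minus Prepuberty 2.9, SE 0.27, adjusted p = 0.0011). Lamb1 stood at 46.5, 40.6, 74.1, 78.7, 306 and 301 CPM (1.62, SE 0.26, adjusted p = 0.00679, and 2.73, SE 0.27, adjusted p = 0.00115). Lamc1, their usual partner, stood at 184, 169, 117, 162, 328 and 327 CPM, above the glands in both tumours but without a call (Tumor minus DCIS 0.87, adjusted p = 0.065). Lama5, the other vessel alpha chain, was below the glands, at 51.9, 40.6, 44.3, 44.4, 26.1 and 15.1 CPM, also without a call (-1.31, adjusted p = 0.0531).

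Receptors followed in the same cells. Itga2 stood at 1.76, 2.91, 1.42, 2.17, 30.0 and 33.9 CPM, on 32 Tumor UMIs in all. It was under the count filter in all 4 glands and passed it through the tumours alone, so it had to differ and is given without a test. Itgb4 stood at 3.87, 2.62, 4.26, 2.17, 18.3 and 26.3 CPM on 21 Tumor UMIs (log2 fold change Tumor minus DCIS 2.34, SE 0.60, adjusted p = 0.0357), and it did not pass without any 1 of the DCIS or Tumor libraries, with adjusted p up to 0.169. Itgb1 passed between Tumor and Prepuberty only, at 259, 258, 276, 320, 483 and 1028 CPM (1.42, SE 0.32, adjusted p = 0.024), was lost without any 1 of 5 libraries, Tumor 1 being the exception (adjusted p up to 0.138), and is the gene that was higher in Tumor 2 in every class. Itga6 stood at 121, 125, 142, 164, 180 and 218 CPM and did not pass. Lama4 and Lamb1 between Tumor and Prepuberty passed in each of 18 alternatives. Between Tumor and DCIS Lamb1 did not pass without DCIS 1 or without DCIS 2 (adjusted p up to 0.0704). Within cluster 5 alone, an alternative chosen after seeing the data, the Lama4, Lamb1, Itgb4 and Itgb1 calls remained past the threshold, with Lama4 at 27.9, 29.3, 59.3, 56.2, 291 and 272 CPM (Tumor minus DCIS 2.04, adjusted p = 0.00168).

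Markers of other cells stood beside these values as follows. The summed level of 9 luminal markers was 42.5 to 80.5 CPM in gland endothelial-like cells, and 153 and 26.3 CPM in those of Tumor 1 and 2, where Krt8 of Tumor 2 was at 0. Fibroblast markers summed to 52.1 to 279 CPM in the glands and 327 and 294 CPM in the tumours, and pericyte markers to 112 to 817 CPM and 324 and 154 CPM. Their part in the endothelial results was not tested.

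Of 9 other basement membrane genes tested 5 were higher between Tumor and DCIS and 7 between Tumor and Prepuberty, with 0 lower in either. Col18a1, the source of endostatin, stood at 631 CPM in Tumor, 104 CPM in DCIS and 74.4 CPM in Prepuberty on average, and Nid2, a laminin-binding nidogen, at 187, 34.3 and 24.2 CPM. Of 13 ligands 5 were higher between Tumor and DCIS, among them Fn1 (429 against 35.4 CPM) and Npnt, which reached the count filter in the tumours alone, and Vcam1 was lower (5.23 against 216 CPM). Plec was higher (1.98) among 3 hemidesmosome partners, Tns3 and Ilk were higher and Lims2 lower among 22 adaptors, and 0 of 5 other laminin receptors passed.

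**Figure D5:**
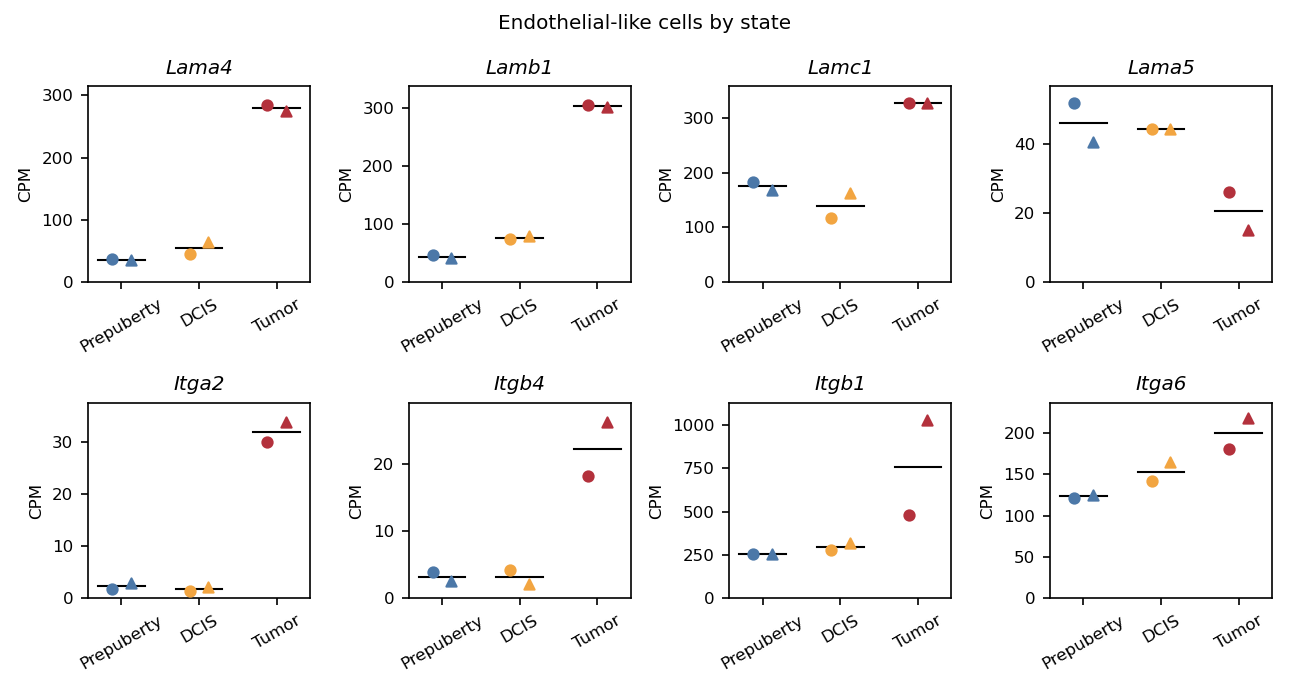
Levels in CPM of 8 members in endothelial-like cells of the 3 states. Points are libraries (circle replicate 1, triangle replicate 2) and lines are means of 2 libraries. Lama4, Lamb1, Itga2 and Itgb4 are higher in both tumours than in any gland, Lama5 is lower in both, and Itgb1 of Tumor 2 is set apart at 1028 CPM.

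In fibroblast-like cells 25 members were tested. Between Tumor and DCIS 2 were higher and 3 lower (20% against 12.7% of all genes), between Tumor and Prepuberty 4 were higher and 1 lower (20% against 8.79%, with 7.53% of all genes higher and 5.14% lower in the first contrast and 6.26% and 2.54% in the second), and between DCIS and Prepuberty 0 passed by edgeR (3 at an unadjusted p under 0.05, and 0 by DESeq2), with 0% of all genes. Among features at the filter in at least 1 library of each state, 5 of 21 members (23.8%) passed between Tumor and DCIS, against 9.76% of genes, and 1 of 20 (5%) between Tumor and Prepuberty, against 5.41%, with Itga3, Itgb4, Itgb7 and Lamb3 left out. The Tumor cells of this class carried T-antigen and luminal marker transcripts. A T-antigen UMI was seen in 29.5% and 44.4% of them, against 0 to 0.643% in the glands, and 9 luminal markers summed to 708 and 280 CPM against 18.6 to 94.4 CPM. Without integration a fibroblast-like cluster of 186 cells, led by H19, Brinp3 and Mmp13, held 184 Tumor 2 cells and 0 Prepuberty cells. A T-antigen UMI was seen in 51.6% of its cells, and the part of this cluster in the values below was not tested.

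The 4 members that were higher in Tumor fibroblast-like cells had their highest medians in other classes. Lamb3 stood at 0.324, 0.124, 1.51, 0.763, 27.3 and 32.1 CPM (log2 fold change Tumor minus DCIS 4.05, SE 0.58, adjusted p = 0.0109). Itga6 stood at 2.5, 0.747, 2.08, 1.63, 17.8 and 21.6 CPM (2.71, SE 0.66, adjusted p = 0.0382), but the value turned to -0.0589 without integration and did not pass without DCIS 1, DCIS 2, Tumor 1 or Tumor 2. Itga3 (0.462, 0, 0.567, 0.981, 8.04 and 19.9 CPM) and Itgb4 (0.509, 0.436, 0.378, 0.654, 2.45 and 13.3 CPM) were under the count filter in all 4 glands, had to differ and are given without a test. In cells without a T-antigen UMI, Lamb3 of Tumor 1 fell to 9.42 CPM and Itga6 to 8.31 CPM, while Tumor 2 stayed at 31.8 and 22.7 CPM. With such cells left out, 9 luminal markers still summed to 374 and 266 CPM in the tumours.

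Lama2, Lamc1 and Itgb3 were lower than in DCIS in the same cells. The Lama2 call was lost without any 1 of the DCIS or Tumor libraries, and the Lamc1 and Itgb3 calls without DCIS 1, DCIS 2 or Tumor 2. Lama2 stood at 35.7, 10.0, 48.8, 28.1, 9.78 and 12.9 CPM, with the tumours below the DCIS glands and overlapping with Prepuberty 2 (log2 fold change Tumor minus DCIS -2.47, SE 0.65, adjusted p = 0.0462). Lamc1 stood at 156, 104, 184, 155, 80.4 and 64.6 CPM (-1.89, SE 0.41, adjusted p = 0.0283) and Itgb3, which pairs with Itgav to bind vitronectin, at 35.4, 16.0, 58.8, 37.7, 11.5 and 7.20 CPM (-3.04, SE 0.59, adjusted p = 0.0209), both below all 4 glands. Cluster 10, led by Crabp1 and Col1a1, held 41.8% and 38.9% of the Tumor cells of this class against 25.1% and 13.5% in DCIS and 22.2% and 4.67% in Prepuberty. Within that cluster the Tumor values were 89.1 and 64.2 CPM for Lamc1 (204 and 186 CPM in DCIS), 8.83 and 4.81 CPM for Lama2 (75.0 and 68.0 CPM) and 13.6 and 9.62 CPM for Itgb3 (51.1 and 18.7 CPM). In cluster 4, on 21 and 12 Tumor cells, Lamc1 stood at 175 and 300.2 CPM against 169 and 129 CPM in DCIS, Lama2 at 32.2 and 172 CPM against 41.0 and 18.9 CPM, and Itgb3, on 7 and 3 UMIs, at 32.2 CPM in both tumours against 66.1 and 43.7 CPM. In cluster 10 both Tumor values of Lama2 and Lamc1 lay below both DCIS values, and in cluster 4 no Tumor value of either gene did, with no test within clusters. Itgb7 had 3 Tumor UMIs against 252 in Prepuberty, a ratio of 16.6 of pooled CPM, Prepuberty over Tumor, with a counting interval from 5.61 to 81.0. It was under the count filter in both tumours, had to differ and is given without a test. With T-antigen cells left out 3 of these calls against DCIS remained past the threshold, Lamb3, Itgb3 and Lamc1. The 1 call left against Prepuberty was Lamb3, which was under the count filter in both Prepuberty libraries and had to differ. Without integration none of the members named here passed, and without DCIS 1 or DCIS 2 there were 0 calls between Tumor and DCIS. With the replicate number as a block 8 members passed against DCIS and 13 against Prepuberty, in place of 5 and 5.

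Partner genes were counted for both Tumor contrasts. Col4a1 was lower between Tumor and DCIS (-2.63), alone among 11 basement membrane genes. Of 23 adaptors 6 were higher and 1 lower, among them Tln2 (3.48) and Actn1 (2.17) upward and Lims2 (-3.25) downward. Fermt1 reached the count filter in only 1 of these states. Of 12 ligands Edil3, which reached the count filter in the tumours alone, was higher, and Icam1 (-3.49) and Vcam1 (-2.26) were lower, and 0 of 4 hemidesmosome partners and 0 of 5 laminin receptors passed. Between Tumor and Prepuberty Col4a1 (-2.29) was again the only basement membrane gene called, Tln2 and Tns3 were higher and Lims2 lower among the adaptors, Spp1 (4.97) was higher and Icam1 (-2.28) lower among the ligands, Fermt1, Npnt and Edil3 were called higher but reached the count filter in the tumours alone, and 0 genes of the other lists passed.

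In macrophage-like cells 14 members were tested. Between DCIS and Prepuberty 0 passed by edgeR (4 at an unadjusted p under 0.05, and 1 by DESeq2), against 0.115% of all genes (0.0894% higher, 0.0255% lower), between Tumor and DCIS 0 passed (3 at an unadjusted p under 0.05, and 0 by DESeq2), against 6.45% (2.43% higher, 4.02% lower), and between Tumor and Prepuberty 2 were higher, 14.3% against 5.88% (1.89% higher, 4% lower). Both, Itgb5 and Itga6, were under the count filter in both Prepuberty libraries and reached it in DCIS and Tumor, and of the 11 members at the filter in both states 0 passed, against 4.32% of such genes. Itgb5, which pairs with Itgav, stood at 6.58 and 6.33 CPM in Prepuberty, 33.0 and 48.5 CPM in DCIS and 102 and 149 CPM in Tumor, with the 3 states apart (log2 fold change 3.80). It rested on 6 Prepuberty UMIs against 463, had to differ between Tumor and Prepuberty and is given without a test. Itga6 had 0 UMIs in Prepuberty, 10.3 and 11.3 CPM in DCIS and 17 and 46.9 CPM in Tumor. Its pooled Tumor level was at least 9.0-fold higher, with a floor of 3 UMIs over both Prepuberty libraries, and Itga6 is likewise given without a test.

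Tumor 2 stood apart in this class for other partners of Itgav. Itgb3 stood at 67.8 CPM in Tumor 2 and at 0 to 2.19 CPM in the other 5 libraries, too few counts for a test across states. Itgav stood at 17.5, 10.5, 42, 49.7, 31.0 and 179 CPM (Tumor minus Prepuberty 2.30, adjusted p = 0.0855). The leukocyte subunits Itgam (48.3 to 190 CPM), Itgb2 (39.5 to 171 CPM) and Itgax (4.39 to 52.9 CPM) passed in none of the 3 contrasts. The class also held neutrophil-marked cells, since 6 neutrophil markers summed to 151, 369, 328, 50.8, 956 and 4948 CPM, with S100a8 at 2683 CPM in Tumor 2. Their part in these values was not tested. From the lists, Fn1 (5.08) and Spp1 (6.01) of 8 ligands were higher between Tumor and Prepuberty, Spp1 was also higher between DCIS and Prepuberty (5.96, 2176 against 38.6 CPM), Sdc4 (-2.17) of 4 laminin receptors and Ptk2 of 18 adaptors, under the count filter in both tumours, were lower, 0 of 3 hemidesmosome partners passed and 0 basement membrane genes had enough counts.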

How the data were processed

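Single-cell 3′ RNA of 6 libraries was measured on the 10x platform. The authors deposited raw UMI counts per gene and cell, made with Cell Ranger 3.0.2 (file headers) on mm10 (submitters' processing notes), and 0 value columns were left unmapped. The kit and dissociation of the libraries are described differently by the labels and by the study's methods.

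Cells with under 200 genes or over 10% mitochondrial UMIs were removed (546 and 1045 barcodes), as were the 707 cells with the highest Scrublet scores, a share set by the number of cells, since its automatic limit marked 31. Cells were integrated and clustered with Seurat 5.3.0 (2000 variable genes, 20 dimensions, resolution 0.8), and the members were kept out of the variable genes and marker lists, while other listed genes were allowed. Clusters were named from at least 3 markers in 25% of cells at 2-fold, 5 of 25 stayed unnamed, and the basal keratin rule for myoepithelial-like cells was set after clusters were seen. CPM values are UMIs of a gene scaled to the UMIs summed over a class and library with at least 10 cells.

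Summed counts were tested with the quasi-likelihood test of edgeR 4.0.16 (R 4.3.3, TMM, filterByExpr), with all states in 1 fit per class and Benjamini-Hochberg adjustment over all genes at 0.05. Contrasts of classes within glands had the library as a block. Each SE given is the absolute log2 fold change over the square root of the F value of that test. Scripts were tested on simulated data. Alternatives were DESeq2 1.42.0, no filter, other clusterings and cell filters, a replicate block and leaving out each library. Total UMIs were 2.85e+07 to 5.71e+07 a library, and intervals cover counting error only.

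The members and lists were chosen with earlier results of these data known. Values by library are given for members past the threshold (up to 12 a direction in the basal and epithelial contrasts by fold change, up to 5 elsewhere by adjusted p), and, whatever their p, for Lama2 to Lama5, Lamb1, Lamb3, Lamc1 and the main epithelial receptors in epithelial and myoepithelial cells. Lists are counted, with up to 4 examples, and other members are named by class. The values of 1 member are not reported here, although counts over the members include it.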

Additional observations from a re-analysis of the deposited data

Results flagged for a closer look

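In 5 of 42 groups of 4 gland values 1 library stood apart from the other 3 by Dixon's criterion, for which chance gives about 1 in 20 groups. In myoepithelial-like cells Prepuberty 1 was the highest for Itga6 (413.9 CPM), Itga8 (125.6 CPM) and Lama5 (49.9 CPM), and DCIS 2 was the only library with a Lama2 UMI (0.225 CPM). In epithelial-like cells Prepuberty 1 was the lowest for Lamb3 (18.1 CPM).

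For some members the fitted difference between Tumor and gland had opposite signs in 2 classes. For Lamc1 and Itgb3 only the first value given here passed the test. Lamc1 between Tumor and DCIS was -1.89 on the log2 scale in fibroblast-like cells and 0.87 in endothelial-like cells, and the difference was not tested. Itgb3 in the same contrast was -3.04 in fibroblast-like cells, 1.05 in epithelial-like and 0.06 in endothelial-like cells, and neither difference was tested. Itgb5 between Tumor and Prepuberty was 3.80 in macrophage-like cells, where it is given without a test. It was -0.94 in endothelial-like cells, where it did not pass, and this difference was not tested either.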

How the results depend on the processing

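Without the filter on low counts the members past the threshold numbered 1, 8 and 5 in epithelial-like cells (DCIS against Prepuberty, Tumor against DCIS, Tumor against Prepuberty, in place of 0, 0 and 3), 2, 12 and 17 in fibroblast-like (0, 5 and 5), 2, 7 and 10 in endothelial-like (0, 4 and 5) and 3, 3 and 5 in macrophage-like cells (0, 0 and 2). DESeq2 gave 1 and 5 in the first 2 epithelial contrasts, 10 and 11 in the Tumor contrasts of fibroblast-like cells, and 1 between DCIS and Prepuberty in endothelial-like and in macrophage-like cells. Without integration there were 0 calls in epithelial-like cells between Tumor and Prepuberty and 1 and 0 in the Tumor contrasts of fibroblast-like cells, where Itga6 between Tumor and DCIS turned from 2.71 to -0.0589 on the log2 scale, and the cause was not tested. Only the libraries compared gave 1 call in epithelial-like cells between Tumor and Prepuberty. Tumour cells chosen by T antigen, an alternative chosen after seeing the data, gave 2 between Tumor and DCIS, and with epithelial clusters 9 and 12 left out, chosen likewise, there was 1 call in each Tumor contrast. Fibroblast-like cells had 8 calls between Tumor and DCIS with doublets kept, and 3 and 1 calls in the Tumor contrasts with T-antigen cells left out.

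Leaving out 1 library gave 0 to 4 calls between Tumor and DCIS and 0 to 6 between Tumor and Prepuberty in epithelial-like cells, 0 to 8 and 0 to 7 in fibroblast-like, 2 to 5 and 3 to 5 in endothelial-like, and 0 to 2 and 1 to 4 in macrophage-like cells (0 to 1 between DCIS and Prepuberty). It gave 12 to 18 calls for basal against luminal cells, 6 to 10 for tumour epithelium against DCIS basal cells and 3 to 7 for the luminal subsets. Epithelial-like cells had 2 calls without Tumor 1 and 4 without Tumor 2 between Tumor and DCIS. Fibroblast-like cells had 8 without Tumor 1 and 1 without Tumor 2 between Tumor and DCIS, and 0 without Prepuberty 2 between Tumor and Prepuberty. Macrophage-like cells had 4 without Tumor 1 between Tumor and Prepuberty.

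With the replicate number as a block the calls were 1 in epithelial-like cells between Tumor and Prepuberty, 8 and 13 in the Tumor contrasts of fibroblast-like cells and 7 in endothelial-like cells between Tumor and DCIS. The labels tie same-numbered libraries by the number alone, and their deviations correlated at -0.08 to 0.07 in epithelial-like, 0.14 to 0.33 in fibroblast-like (over 0.1 for each of the 3 pairs of states), 0.03 to 0.35 in endothelial-like and 0.02 to 0.13 in macrophage-like cells. Luminal subsets compared with no replicate block gave 1 call in place of 7. A tally over all alternatives was made for the members called in a contrast and for those given whatever their p in epithelial and myoepithelial cells. In it 1 value reversed, 144 lost and 40 gained a call and 1932 did neither. Calls gained by other members are outside this tally. The 2 libraries a state and the 32 to 77 endothelial-like cells of the tumours limit what could be detected.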
